A study of Mus musculus with 27 samples.

Results

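The 10 genes described here encode 6 S100 proteins (S100a1, S100a4, S100a6, S100a10, S100a11 and S100a13) and 4 annexins (Anxa1, Anxa2, Anxa3 and Anxa8). They were taken by symbol from the expression table, which lists 24953 genes in 9 libraries, and all 10 passed the filter on low values. RNA-seq of poly(A) RNA was made from mK4 cells, a mouse line derived from the metanephric mesenchyme of the embryonic kidney. The 3 control libraries came from the parental cells, the 3 Runx1KO libraries from cells in which a pair of CRISPR guides removed exon 3 of Runx1, and the 3 ZebDKO libraries from parental cells in which guides targeted exon 2 of Zeb1 and exon 1 of Zeb2. Both knockouts were grown from picked clones, and the number of clones sequenced was not stated, so clone and genotype cannot be told apart. Lists of ChIP-seq peaks were deposited as well, of Runx1 (control cells) and of Runx2 (control and Runx1KO cells), along with ATAC-seq peaks sorted by how they changed in Runx1KO cells. ATAC-seq marks open chromatin by where a transposase can cut it.

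S100 proteins are small calcium-binding proteins with a pair of EF-hand motifs that bind and regulate other proteins once calcium is bound, and S100a10 is the exception that has lost calcium binding. Annexins bind negatively charged membrane lipids in the presence of calcium. The families meet in fixed complexes: S100a10 (p11) with annexin A2, which gathers plasminogen and its activators at the cell surface, and S100a11 with annexin A1. S100a4 is widely used as a marker of fibroblasts and mesenchymal cells, and most S100a genes lie side by side in 1 chromosomal cluster.

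Values are TPM, a read number scaled to gene length and to the library total, so that levels can be compared between genes on a per-length scale. Fold changes are differences of log2(TPM+1), so changes of scarce genes appear smaller than they are. A gene was called when it changed over 2-fold with a Benjamini-Hochberg adjusted p under 0.05 in limma. In bulk RNA, fewer cells of a type and less RNA per cell cannot be told apart.

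The libraries were alike in detection, with 12541 to 12697 genes at 1 TPM or more, and no read depth can be read from TPM. The deleted exons cannot be checked in TPM of whole genes, and the Runx1 level was 17.4 ± 1.61 TPM in control, 29.6 ± 0.987 in Runx1KO and 10.1 ± 0.608 in ZebDKO libraries (SD, n = 3). The Zeb1 level was 15.0, 0.167 and 16.1 TPM in the same order, and the Zeb2 level was 5.2, 0.2 and 1.7 TPM. The paper reports the deletions by PCR, and loss of Runx1 protein in Runx1KO and of Zeb1 protein in ZebDKO cells by Western blot. It had no working antibody for Zeb2. Of 10 metanephric mesenchyme markers, Pax2, Hoxa11, Osr1, Sall1, Eya1 and Gdnf were present in control cells at 12.7 TPM or more, while Six2, Wt1, Cited1 and Hoxd11 were at 0.200 TPM or less. In Runx1KO cells 3 of the 6 were called lower, where 5.1% of all genes tested were. Osr1 went from 66.4 to 0.4 TPM, Gdnf from 12.7 to 0.1 TPM and Eya1 from 16.2 to 5.87 TPM. Pax2 (313 to 470 TPM) and Sall1 (52.1 to 65.7 TPM) were higher there within 2-fold, and Hoxa11 overlapped control. In ZebDKO cells Osr1 fell to 18.2 TPM and Gdnf rose to 39.8 TPM. The summed level of the 10 mesenchyme markers was 670.6 to 681.8 TPM in control, 716.4 to 784.6 in Runx1KO and 615.3 to 645.5 in ZebDKO libraries. The summed level of 5 leukocyte and endothelial markers was 0 to 0.6 TPM in every library. The summed level of 5 epithelial markers was 2.1 to 4.1 TPM in control, 2567.5 to 2648.9 in Runx1KO and 1144.3 to 1203.2 in ZebDKO libraries. Krt8 made up most of these sums, at 2353 TPM in Runx1KO and 1050 TPM in ZebDKO cells. In Runx1KO cells Krt8, Krt18 and Cldn4 rose while Epcam stayed at 0 and Cdh1 at 0.200 TPM. These 3 of 5 were the only ones tested, and all were called higher, where 7.91% of all genes tested were. In ZebDKO cells Epcam rose too, and all 4 of 5 tested were called higher, where 7.5% of all genes tested were. Krt18, Cldn4 and Epcam passed the filter only through knockout libraries. Whether these shifts in mesenchyme and epithelial markers have a part in the member values below was not tested.

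In Runx1KO cells 4 of the 10 members were called against control, where 13% of the 13067 genes tested were called (7.91% higher, 5.1% lower). S100a1, S100a13 and Anxa8, the 3 scarcest members in control cells, rose, and S100a4 fell. In ZebDKO cells 1 of 10 was called, S100a4, again lower, where 14.8% of 12974 genes were called (7.5% higher, 7.28% lower). Tested directly, S100a1, S100a13 and Anxa8 were called higher in Runx1KO than in ZebDKO cells, 3 of 10 members where 15.8% of 13071 genes were called (9.2% higher, 6.59% lower). The abundant S100a6, S100a10, S100a11, Anxa1, Anxa2 and Anxa3 stayed within 2-fold in all 3 comparisons. Together the 10 genes supplied 1.21% ± 0.0326 of all TPM in control libraries, 1.14% ± 0.0192 in Runx1KO and 1.04% ± 0.00994 in ZebDKO libraries (SD, n = 3).

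**Figure D1:**
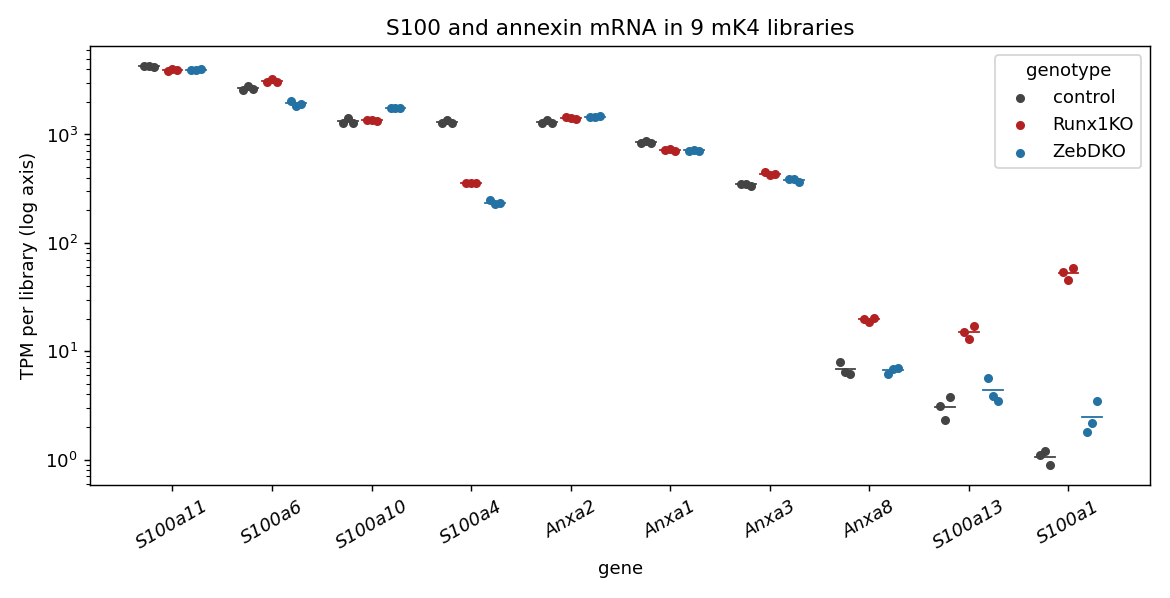
TPM of the 10 genes (x axis, ordered by control mean) in each of the 9 libraries, on a log axis. Points are libraries, short lines are means of 3 libraries, and colours are genotypes. S100a4 fell from between 1274 and 1364 TPM in control to between 226 and 355 TPM in both knockouts, and the 3 S100a1 points of Runx1KO cells (45.1 to 59.2 TPM) stood above the other 6.

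S100a4, which binds the non-muscle myosin heavy chain Myh9, was at 1274, 1364 and 1275 TPM in the control libraries. It was at 354.8, 354.5 and 354.4 TPM in the Runx1KO libraries and at 247.8, 226 and 231.3 TPM in the ZebDKO libraries. Every control library lay above every knockout library, and every Runx1KO library above every ZebDKO library. The mean was 3.68-fold lower in Runx1KO cells, a log2 fold change of -1.88 (SE 0.0311, adjusted p = 1.74e-08), and 5.55-fold lower in ZebDKO cells, a log2 fold change of -2.47 (SE 0.0440, adjusted p = 2.25e-08). Tested directly, Runx1KO cells held 1.51-fold more S100a4 RNA than ZebDKO cells (log2 difference 0.59, 95% interval 0.51 to 0.68, adjusted p = 4.49e-06), which is within the 2-fold limit. S100a4 was ranked 72 of all genes by mean TPM in control cells, 482 in Runx1KO and 825 in ZebDKO cells.

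In mm9, S100a4 (ENSMUSG00000001020.7) lies on the plus strand at chr3:90407692-90409967. A region of 1348 bases that lost accessibility in Runx1KO cells, and is listed as Runx1-dependent, spans chr3:90407980-90409327 inside the gene. Its Runx1 peak (chr3:90408358-90408846) was 6.48-fold over background, against a median of 4.45 over the 10187 Runx1 peaks, and 89.7% of those peaks were lower. Runx2 was called at the same place, at 6.22-fold in control and 5.85-fold in Runx1KO cells, in chromatin that was listed as closing. Another Runx2 peak of control cells in the same region, chr3:90409088-90409401 at 3.02-fold, overlapped no Runx2 peak of Runx1KO cells and no Runx1 peak, and it holds 3 of the 4 TGTGGT matches of the region. The 300 bases around the Runx1 summit, at chr3:90408415-90408714 on the plus strand, lie in intron 1 and are shown because they hold the 1 Runx1 peak inside the gene of the member that fell. Capitals mark a TGTGGT Runx consensus, searched on both strands. It occurs in 37.6% of windows of 300 bases around the summits of Runx1 peaks (9977 of the 10187 counted). Of windows of 300 bases at the middle of Runx1-dependent ATAC-seq peaks, 35.5% hold it.
S100a4 intron 1: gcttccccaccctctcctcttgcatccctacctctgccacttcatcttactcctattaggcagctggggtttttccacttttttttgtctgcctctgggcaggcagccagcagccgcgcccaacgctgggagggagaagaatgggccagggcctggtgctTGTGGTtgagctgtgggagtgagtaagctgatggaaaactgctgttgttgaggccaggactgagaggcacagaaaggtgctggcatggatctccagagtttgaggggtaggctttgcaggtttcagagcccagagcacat
A further pair of Runx1-dependent peaks had no Runx1 or Runx2 peak. The upstream one, chr3:90404735-90405026, lies in an intron of the neighbour S100a3, which was not called (log2 fold change 0.99 in Runx1KO cells). The other, chr3:90410133-90410544, lies downstream of S100a4. A match describes these letters and is not a bound site by itself.

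**Figure D2:**
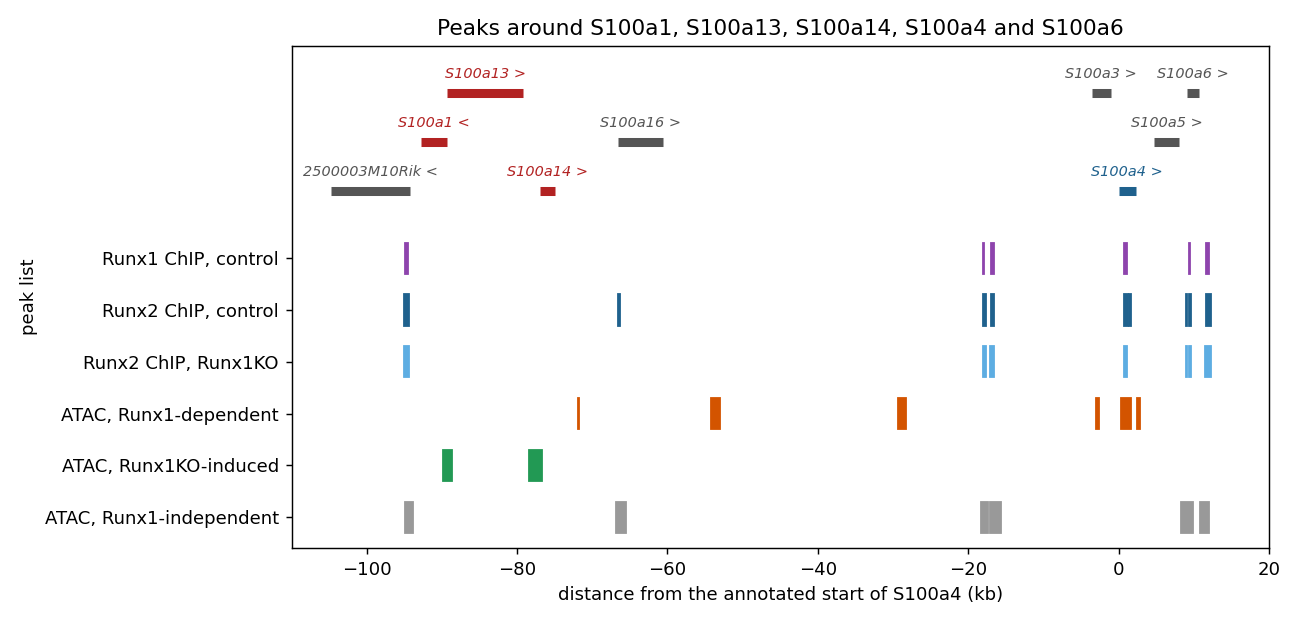
Map of the S100 cluster on chromosome 3, in kb from the annotated start of S100a4. Thick bars are genes (red called higher, blue called lower in Runx1KO cells, grey not called or not tested, > and < the strand) and the lower rows are the 6 deposited peak lists drawn at their true width. The 2 Runx1KO-induced peaks lie at the starts of S100a1, S100a13 and S100a14. Of the 3 Runx1-dependent peaks around S100a4, the upstream one lies in an intron of S100a3.

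S100a6 (calcyclin), which binds annexins and Cacybp and starts 6.8 kb past the end of S100a4, stayed within 2-fold. It was at 2573, 2796 and 2643 TPM in control, 3040, 3263 and 3030 in Runx1KO and 2044, 1845 and 1924 in ZebDKO libraries. The 3 genotypes did not overlap, with Runx1KO highest and ZebDKO lowest. The log2 fold change against control was 0.22 in Runx1KO (SE 0.0418, adjusted p = 0.00257) and -0.46 in ZebDKO cells (SE 0.0457, adjusted p = 5.43e-05), and the direct difference between the knockouts was 0.68 (95% interval 0.58 to 0.79, adjusted p = 6.30e-06). The ATAC-seq peak over its start (chr3:90415982-90417548) was listed as Runx1-independent and overlapped a Runx1 peak of 3.14-fold, with 1.79% of the list lower, and another of 6.46-fold had its middle 2732 bases past the start. Cacybp was at 289, 259 and 182 TPM in control, Runx1KO and ZebDKO cells. Among 13327 genes with at least 1 TPM in 3 libraries and outside the lists, the profiles nearest to S100a6 over the 9 libraries belonged to Zfp263 and Cib2, at Euclidean distances of 0.127 and 0.130 between centred log2(TPM+1) values, against a median of 1.02.

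S100a1 and S100a13 rose from low levels in Runx1KO cells. S100a1, an EF-hand protein of heart and skeletal muscle that binds ryanodine receptors, was at 1.1, 1.2 and 0.9 TPM in control, 53.7, 45.1 and 59.2 TPM in Runx1KO and 1.8, 2.2 and 3.5 TPM in ZebDKO libraries. The 3 genotypes did not overlap. In Runx1KO cells the mean TPM was 49.4-fold that of control, and the log2 fold change on log2(TPM+1) was 4.69 (SE 0.107, adjusted p = 6.41e-08). In ZebDKO cells the log2 fold change was 0.73 (SE 0.176, adjusted p = 0.00595), under the 2-fold limit with a pseudocount of 1 but past it at 1.11 with a pseudocount of 0.1. The direct difference between the knockouts was 3.96 (95% interval 3.54 to 4.38, adjusted p = 1.09e-06). Control values so near 1 TPM make the fold change sensitive to the pseudocount. With 1 control library at 0.9 TPM, S100a1 passed the filter against control only with the knockout libraries counted in.

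S100a13, which takes part in the release of Fgf1 and interleukin 1 alpha, was at 3.1, 2.3 and 3.8 TPM in control, 14.9, 12.9 and 17 TPM in Runx1KO and 5.7, 3.9 and 3.5 TPM in ZebDKO libraries. All Runx1KO libraries stood above the others, whereas control and ZebDKO libraries overlapped. The log2 fold change was 1.98 in Runx1KO (SE 0.152, adjusted p = 2.61e-05) and 0.40 in ZebDKO cells (SE 0.186, adjusted p = 0.0847, 95% interval -0.04 to 0.83), and the direct difference was 1.58 (95% interval 1.20 to 1.96, adjusted p = 6.15e-05).

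Both genes share a start region. S100a1 (ENSMUSG00000044080.9, minus strand, chr3:90314956-90318314) and S100a13 (ENSMUSG00000042312.6, plus strand, chr3:90318357-90328503) point away from each other. The GENCODE models, which give these positions, leave 42 bases between them. The RefSeq models, on which reads were counted, overlap by 98 bases and leave no gap. Whether counting used strand was not stated, so reads in that overlap cannot be assigned to one gene. A peak listed as opening in Runx1KO cells (Runx1KO-induced) covers both starts at chr3:90317777-90318968, without a Runx1 or Runx2 peak. Its 1192 bases hold 3 TGTGGT matches. Of windows of 300 bases at the middle of induced peaks, 21.0% hold at least 1, a share for shorter stretches that cannot be set against this count. The 42 bases are shown because the pair of GENCODE starts sits at their ends (plus strand, chr3:90318315-90318356).
S100a1 to S100a13 spacer: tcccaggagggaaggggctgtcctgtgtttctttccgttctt
S100a14, the neighbour that begins 2.3 kb past the end of S100a13, was also higher, at 0.1, 0.2 and 0.1 TPM in control against 54.2, 51.2 and 50.9 in Runx1KO libraries (log2 fold change 5.55, SE 0.0603, adjusted p = 3.55e-09). S100a14 passed the filter for this test only through its high Runx1KO libraries, so the call describes these values and adds no further support. In ZebDKO libraries S100a14 was at 0.8, 1.1 and 1.2 TPM, which did not pass the filter for a test against control, and the direct difference between the knockouts was 4.71 (adjusted p = 2.40e-08).

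A second Runx1KO-induced peak, chr3:90329325-90330954, covers the S100a14 start and holds 8 matches to the Zeb E-boxes CAGGTG or CAGGTA, counted on both strands. The median was 4 over the 266 induced peaks within 20% of its width, of which 6.77% held at least 8, and per kb it held 4.91 against a median of 2.69 over all 9427 induced peaks, of which 18.1% held as many per kb. The peak over the S100a1 and S100a13 starts held none. The 300 bases with most matches, chr3:90329915-90330214 on the plus strand, are intergenic and are shown with those 5 matches in capitals. Of windows of 300 bases at the middle of peaks, 62.7% of induced, 33.3% of Runx1-independent and 18.7% of Runx1-dependent ones held at least 1.
upstream of S100a14: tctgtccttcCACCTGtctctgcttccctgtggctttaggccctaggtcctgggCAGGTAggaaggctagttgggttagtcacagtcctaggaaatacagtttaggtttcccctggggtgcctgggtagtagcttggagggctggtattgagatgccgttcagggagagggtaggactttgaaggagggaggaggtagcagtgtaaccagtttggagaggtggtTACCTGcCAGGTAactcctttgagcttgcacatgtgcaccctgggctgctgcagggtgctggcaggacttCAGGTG
These are letter matches, and no Zeb binding data were used.

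Of the 9 other genes within 50 kb of these cluster members on chromosome 3, 7 could be tested in Runx1KO cells. Of these, S100a14, tested only through its high Runx1KO libraries, rose and S100a7a fell, where 13% of all genes tested were called. S100a7a was at 7.7, 7.2 and 5.5 TPM in control and 2.1, 1.4 and 2.9 in Runx1KO libraries (log2 fold change -1.33, SE 0.191, adjusted p = 6.28e-04). None of the 6 tested in ZebDKO cells was called, where 14.8% of all genes tested were. S100a3, next to S100a4, was at 5.23 TPM in control, 11.3 in Runx1KO and 4.67 in ZebDKO cells, with a log2 fold change of 0.99 in Runx1KO (adjusted p = 4.08e-04), just inside the limit. It passed the limit without control replicate 1 (1.04), control replicate 2 (1.09) or Runx1KO replicate 2 (1.04), with pseudocounts of 0.1 (1.11) and 0.5 (1.05), under median-ratio scaling (1.04) and in the 6-library table (1.04). Between the knockouts S100a3 differed by 1.12 (adjusted p = 1.04e-05), under the limit after median-ratio scaling (0.97) and quantile normalization (0.87). The RefSeq model of S100a2, a gene outside the lists that was looked at after its values were seen, lies within the S100a3 span, so S100a3 and S100a2 reads may not be separable, and S100a2 was at 1.57, 6.47 and 1.17 TPM in the same order.

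The S100a10 and Anxa2 pair, subunits of 1 heterotetramer, stayed abundant in every genotype. S100a10 was at 1280, 1405 and 1279 TPM in control, 1359, 1354 and 1342 in Runx1KO and 1748, 1739 and 1737 in ZebDKO libraries. Control and Runx1KO libraries overlapped (log2 fold change 0.03, SE 0.0391, adjusted p = 0.466, and -0.04 after quantile normalization), and all ZebDKO libraries stood above the other 6 (0.40, SE 0.0392, adjusted p = 5.2e-05). Anxa2 was at 1271, 1346 and 1276 TPM in control, 1442, 1421 and 1400 in Runx1KO and 1452, 1443 and 1495 in ZebDKO libraries. Its log2 fold change was 0.13 in Runx1KO (SE 0.0288, adjusted p = 0.00516) and 0.17 in ZebDKO cells (SE 0.0306, adjusted p = 0.00123), and the difference between the knockouts was -0.04 (95% interval -0.10 to 0.01, adjusted p = 0.123). The profiles nearest to Anxa2 belonged to Ncdn and B4galt5, at distances of 0.0658 and 0.0971 against a median of 0.920.

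S100a11 (calgizzarin) and its partner Anxa1 were likewise within 2-fold. S100a11, the third most abundant gene of the table in control cells, was at 4285, 4294 and 4204 TPM there, 3843, 4031 and 3966 in Runx1KO and 3893, 3922 and 3997 in ZebDKO libraries. The log2 fold change was -0.11 in Runx1KO (SE 0.0246, adjusted p = 0.00548) and -0.11 in ZebDKO cells (SE 0.0218, adjusted p = 0.00187), the latter turning to 0.09 under median-ratio scaling. Anxa1 was at 834, 869 and 836 TPM in control, 722, 727 and 711 in Runx1KO and 705, 726 and 703 in ZebDKO libraries. All 6 knockout libraries lay below the 3 control libraries (log2 fold change -0.23, SE 0.0246, adjusted p = 1.27e-04, and -0.25, SE 0.0277, adjusted p = 9.93e-05), and the knockouts differed by 0.02 (95% interval -0.04 to 0.07, adjusted p = 0.521).

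S100a11 (chr3:93324410-93330209) and S100a10 (chr3:93359002-93368565) are neighbours 28.8 kb apart, 2.91 Mb beyond S100a6. The start of each lies in a Runx1-independent ATAC-seq peak with Runx1 and Runx2 peaks. Between them, 10.7 kb past S100a11 and 17.6 kb before S100a10, a Runx1 peak of 9.78-fold (chr3:93340922-93341360) overlaps a Runx1-dependent peak at chr3:93340949-93341611, a pair that was picked out after the lists were seen. Neither gene was called, and the 300 bases around its summit (plus strand, chr3:93340982-93341281) are shown with 1 Runx consensus on the minus strand, in capitals as ACCACA, to set beside that of S100a4.
between S100a11 and S100a10: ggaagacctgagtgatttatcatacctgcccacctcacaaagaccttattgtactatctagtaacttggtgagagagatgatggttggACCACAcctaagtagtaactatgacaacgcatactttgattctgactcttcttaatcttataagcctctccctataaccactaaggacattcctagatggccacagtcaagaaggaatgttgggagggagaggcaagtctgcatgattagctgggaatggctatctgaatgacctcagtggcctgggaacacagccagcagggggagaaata
A Runx1KO-induced peak also lies between the genes, at -11.977 to -11.746 kb from the S100a10 start, so chromatin was listed as opening there too. No value in these data ties either region to either gene.

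**Figure D3:**
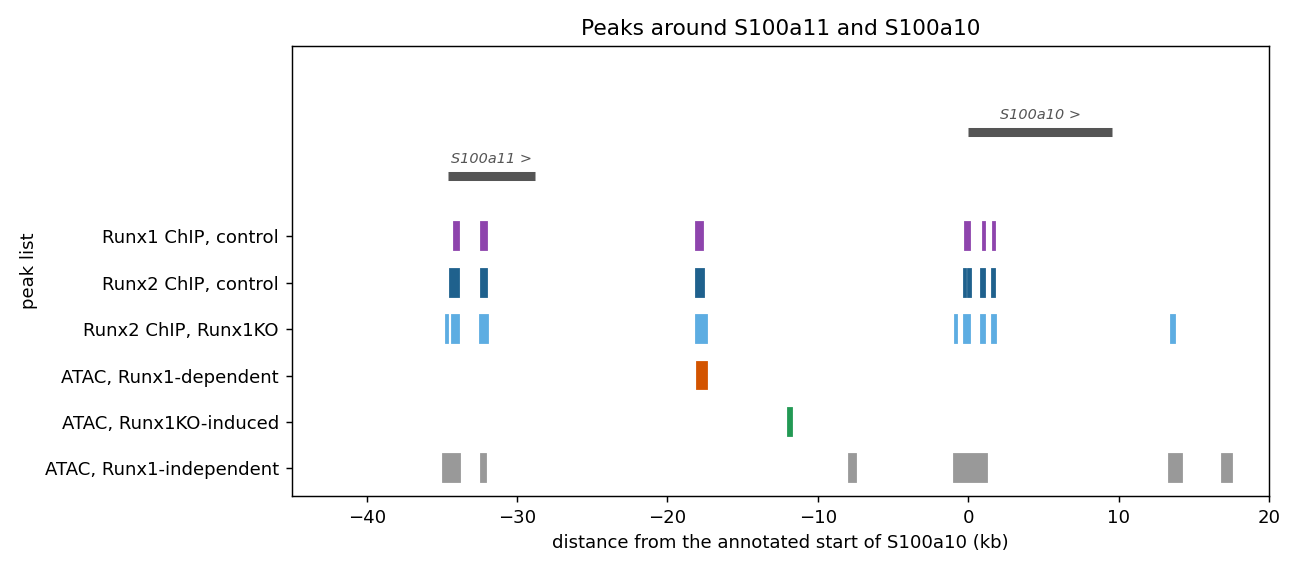
Map of S100a11 and S100a10 on chromosome 3, in kb from the annotated start of S100a10. Grey bars at the top are the genes, neither of them called, and the lower rows are the 6 peak lists at true width. The 1 Runx1-dependent peak of the map lies between the genes, under a peak of each Runx list. A Runx1KO-induced peak lies between the genes as well, at -11.977 to -11.746 kb.

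Anxa1 (ENSMUSG00000024659.7, minus strand, chr19:20447918-20465434) has a Runx1-dependent peak at its start, chr19:20464944-20465427, with a Runx1 peak of 5.49-fold. The part of that peak in intron 1, chr19:20464944-20465101 (158 bases, printed on the plus strand), is shown because chromatin was listed as closing here while the RNA stayed within 2-fold. It holds 1 TGTGGT, in capitals, which 22.4% of central windows of that length in Runx1-dependent peaks also hold.
Anxa1 intron 1: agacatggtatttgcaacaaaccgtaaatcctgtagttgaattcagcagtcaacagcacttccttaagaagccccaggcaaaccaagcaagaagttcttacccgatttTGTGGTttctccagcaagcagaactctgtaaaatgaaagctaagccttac
A Runx1 peak of 8.13-fold, above 96.4% of the list, lies upstream at chr19:20468059-20468349 in a peak listed as Runx1-independent.

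The other 2 annexins differed from each other. Anxa3 was at 351, 350 and 338 TPM in control, 452, 419 and 429 in Runx1KO and 385, 392.4 and 367 in ZebDKO libraries, so that the 3 genotypes did not overlap. Its log2 fold change was 0.32 in Runx1KO (SE 0.0340, adjusted p = 1.31e-04) and 0.14 in ZebDKO cells (SE 0.0336, adjusted p = 0.00605), and 0.18 between the knockouts (adjusted p = 0.00289). Anxa8, an annexin of stratified epithelia, was at 7.9, 6.5 and 6.2 TPM in control, 20, 18.8 and 20.2 in Runx1KO and 6.2, 6.9 and 7 TPM in ZebDKO libraries. Runx1KO libraries stood apart and the other 6 overlapped. The log2 fold change on log2(TPM+1) was 1.40 in Runx1KO cells (SE 0.0848, adjusted p = 7.69e-06), where the mean TPM was 2.86-fold that of control. In ZebDKO cells it was -0.03 (95% interval -0.25 to 0.19, adjusted p = 0.808), a value that turned to 0.15 under median-ratio scaling and 0.18 after quantile normalization. The direct difference was 1.43 (95% interval 1.29 to 1.56, adjusted p = 7.33e-07). The nearest profiles to Anxa8 belonged to Tob1 and Ppargc1b, at distances of 0.255 and 0.316 against a median of 2.11. Tob1 was at 120.7, 296.9 and 108.7 TPM in control, Runx1KO and ZebDKO cells. Ppargc1b was at 0, 1.57 and 0 TPM, so its likeness to Anxa8 rests on values near the floor. Anxa3 and Anxa8 had no Runx1 peak and no Runx1-dependent or Runx1KO-induced peak within 10 kb.

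At any size, 9, 8 and 7 members passed the adjusted p in the 3 comparisons, where 70.5%, 79.4% and 80% of all genes did, and the groups did not overlap for 9, 8 and 8 members, against 73.7%, 81% and 81.7%. The median member log2 fold change was 0.18, 0.06 and 0.39, beside -0.06, -0.18 and 0.15 over all genes tested. The knockouts were compared with the same 3 control libraries, so these values stand side by side and their likeness is no result. Relative to the median of all genes in ZebDKO cells, S100a11 was 0.07 higher and Anxa8 0.16 higher, the reverse of their plain signs, and S100a4 was 2.28 lower.

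**Figure D4:**
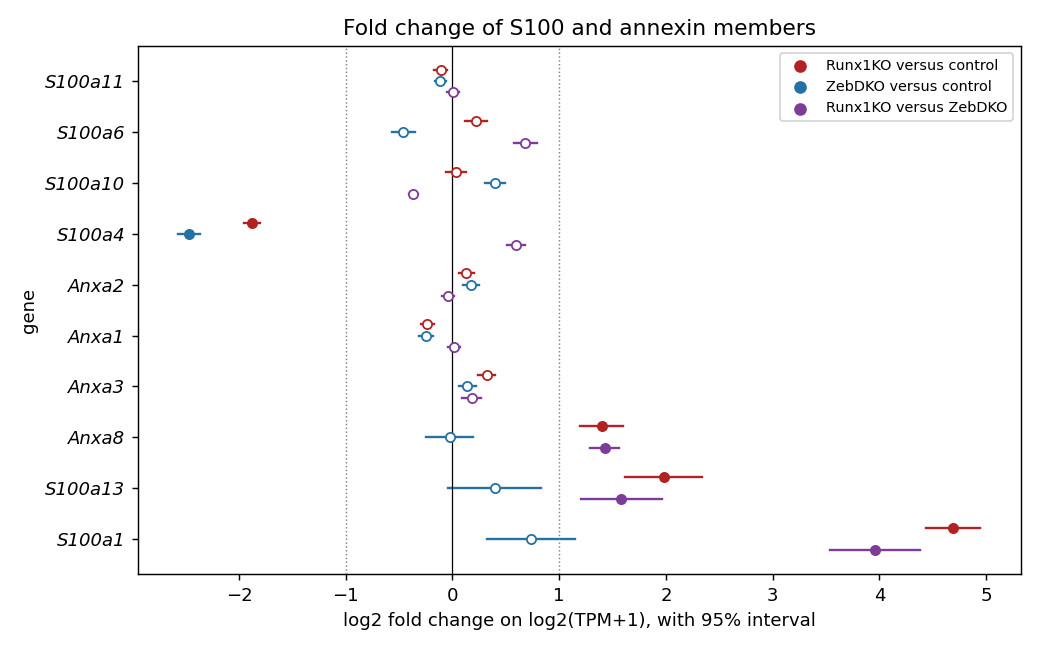
log2 fold change of each member on log2(TPM+1) (x axis) with its 95% interval (lines), in Runx1KO versus control, ZebDKO versus control and Runx1KO versus ZebDKO. Filled points were called and dotted lines mark the 2-fold limit. S100a4 lies left of it in both knockouts (-1.88 and -2.47) and S100a1 right of it in Runx1KO cells (4.69, against 0.73 in ZebDKO cells, with a tested difference of 3.96).

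Of the 18 other S100 and annexin genes, 10 passed the filter in Runx1KO and 9 in ZebDKO comparisons with control. Of the 8 that passed in neither, S100a5 was at 1.7, 2.9 and 0.9 TPM in control, 0.4, 0.4 and 0 in Runx1KO and 0 in all ZebDKO libraries, and the other 7, among them S100a8 and S100a9 of myeloid cells, had means of 0.933 TPM or less in every genotype. S100a14, tested only through its high Runx1KO libraries, rose and S100a7a fell in Runx1KO cells, where 13% of all genes tested were called. None was called in ZebDKO cells, where 14.8% of all genes tested were. At any size, 8 of the 9 had an adjusted p under 0.05 in ZebDKO cells, against 79.4% of all genes tested. Of these annexins, Anxa5 was the most abundant, at 391 ± 8.71 TPM in control, 340 ± 6.99 in Runx1KO and 496 ± 8.28 in ZebDKO libraries (SD, n = 3). Anxa6 was at 79.8, 48.6 and 104 TPM in the same order and differed between the knockouts by -1.08 (SE 0.0290, adjusted p = 1.21e-07), while its log2 fold changes against control were -0.70 and 0.37. Anxa11, Anxa4 and Anxa7 were each higher than in control in both knockouts, within 2-fold, at 0.62, 0.41 and 0.51 in Runx1KO and 0.37, 0.33 and 0.24 in ZebDKO cells. Anxa9 was lower in both, at 5.67 TPM in control, 3.07 in Runx1KO (-0.71, adjusted p = 4.04e-04) and 2.80 in ZebDKO cells (-0.81, adjusted p = 1.32e-04). Of the 6 annexins tested here in Runx1KO cells, 3 were higher and 3 lower at an adjusted p under 0.05. In ZebDKO cells 5 were higher and 1 lower. Over all genes tested, 70.5% passed in Runx1KO cells (3972 higher, 5244 lower) and 79.4% in ZebDKO cells (3496 higher, 6809 lower).

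**Figure D5:**
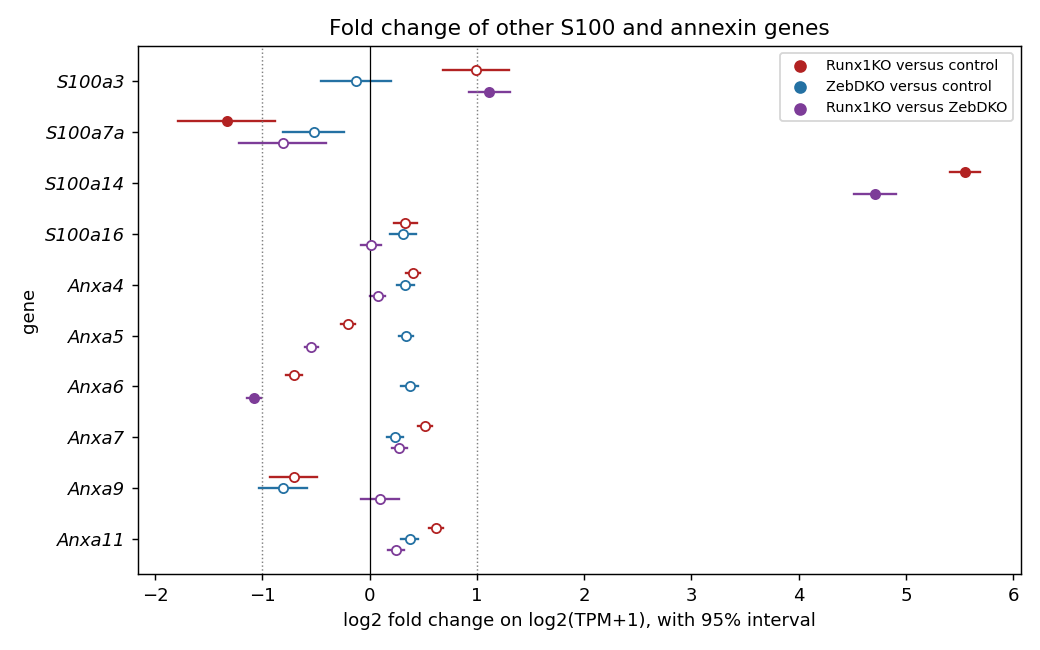
log2 fold change on log2(TPM+1) with 95% intervals for the other S100 and annexin genes that passed the filter, with filled points called and dotted lines at 2-fold. S100a14 (5.55 in Runx1KO, no ZebDKO test) and S100a7a (-1.33) stand outside the limit against control, and the annexins lie within it.

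Among 26 partner genes of these proteins, 17 could be tested in Runx1KO cells, of which 3 rose and 1 fell, where 13% of all genes tested were called. In ZebDKO cells 16 could be tested, of which 4 rose, where 14.8% of all genes tested were called. The list holds 5 genes of the plasminogen system (Plg, Plat, Plau, Plaur and Plgrkt), of which Plat, Plaur and Plau were called in each knockout. Plat, tissue plasminogen activator, was at 70.9 TPM in control, 296 in Runx1KO and 149.1 in ZebDKO cells (log2 fold change 2.05 and 1.06, adjusted p = 1.43e-07 and 2.37e-06). Plaur, the urokinase receptor, was at 212, 433 and 443 TPM (1.03 and 1.06, adjusted p = 3.24e-08 and 2.09e-07). Plau, urokinase, went opposite ways at 4.27, 0.1 and 9.83 TPM (-2.24 and 1.06, adjusted p = 2.25e-05 and 3.79e-04), the ZebDKO call being lost without control replicate 2 (0.91), and the knockouts differed by -3.30 (adjusted p = 1.55e-07). Fgf1, whose release involves S100a13, was at 6.47, 14.9 and 53.9 TPM (1.09 and 2.89, adjusted p = 5.83e-05 and 2.08e-07), and in the 6-library table its Runx1KO value was 0.9985, just short of a call. Plgrkt, a plasminogen receptor, was lower than control within 2-fold at 129.6, 90.3 and 98.5 TPM (-0.52 and -0.39, adjusted p = 5.73e-05 and 1.17e-05). Plg itself, and the S100 and annexin receptors Ager, Fpr1 and Fpr2, were at 0.5 TPM or less in every genotype. Myh9, bound by S100a4, was at 197, 176 and 377 TPM, with a log2 fold change of 0.94 in ZebDKO cells (adjusted p = 2.67e-06) inside the 2-fold limit, past it at 1.14 under median-ratio scaling, and differed between the knockouts by -1.09 (adjusted p = 1.47e-07). S100pbp was the 1 partner called higher in Runx1KO than in ZebDKO cells, at 17.7 against 7.77 TPM (1.10, adjusted p = 3.32e-06), a call lost under median-ratio scaling (0.95) and quantile normalization (0.87). Plat lay at the limit between the knockouts (0.99), and past it without Runx1KO replicate 3 (1.01).

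Peaks within 10 kb of the gene were counted for each member, and these counts carry no test. The ChIP-seq lists were called on combined replicate reads, and the ATAC-seq lists are the study's classes of change between 3 control and 3 Runx1KO samples, with no values per replicate in the files used. Of the 10 members, 8 had a Runx1 peak, against 39% of 11148 tested genes with a position, 9 a Runx2 peak in control cells (69.1%) and 10 in Runx1KO cells (70.5%). A Runx1-dependent ATAC-seq peak lay near 5 members, S100a4, S100a6, S100a13, Anxa1 and Anxa2 (22.4%), and a Runx1KO-induced one near 2, S100a1 and S100a13 (29.2%). Runx1-independent peaks lay near all 10 (94.5%). S100a4 and S100a6 share their 3 Runx1 peaks, and S100a1 and S100a13 share 1, so these counts are of fewer separate regions: 14 Runx1 peaks in all, of which 10 overlap a Runx1-independent and 2 a Runx1-dependent peak, and all 14 overlap a Runx2 peak in control and in Runx1KO cells. Of the 5 members with a Runx1-dependent peak, S100a4 fell, S100a13 rose and S100a6, Anxa1 and Anxa2 stayed within 2-fold. These are not 5 separate sites. The 2 peaks of S100a6 are also counted for S100a4, with middles 8163 and 6478 bases upstream of the S100a6 start. The S100a13 peak had its middle 17516 bases past the start of that gene. That peak and the Anxa2 peak overlapped no Runx1 or Runx2 peak. Of the 8 members with a RefSeq promoter sequence of 300 bases (build GRCm38.p6), none held a Zeb E-box, against 29.3% of 27025 promoters. TGTGGT was held by 2, S100a6 with 3 and Anxa8 with 1 (16.9% of promoters). The AP-1 consensus TGACTCA or TGAGTCA was held by 2, S100a11 with 2 and Anxa2 with 1 (5.17% of promoters).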

How the data were processed

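The 10 members, the lists and the tests were chosen with earlier results of these data known. Per the methods, the authors aligned reads to mm9, removed duplicates, counted on RefSeq genes and deposited TPM (9 libraries, 1 decimal). A second deposited table of 6 libraries, also TPM, was an alternative. The length used and the strand setting are not given in the sources used here. The authors deposited ChIP-seq peaks called by MACS2 on combined replicates, with a ratio (fold over background), −log10 p and q values and a score. They deposited ATAC-seq peaks in 3 classes split by a 2-fold change, with log2 and −log10 columns of their own comparison that were not used.

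R 4.3.3 with limma 3.58.1 was run with trend on log2(TPM+1), over genes with at least 1 TPM in 3 of the 6 libraries compared. Genes called were over 2-fold at an adjusted p under 0.05, and the script was tested on simulated data. Cultures were grown in triplicate from lines, so p-values measure the spread between these cultures. Replicate numbers did not pair the samples (correlations of -0.053 to 0.039). Peaks were counted with Python 3.11.15 and gene positions of GENCODE vM1 within 10 kb. All members were named, with listed genes that were called or most abundant and the 2 profiles nearest to S100a6, Anxa2 and Anxa8. Alternatives were pseudocounts, filters, scaling, a block, 1 fit over 9 libraries, no trend, a 1.3-fold limit, each library left out, and peak distance.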

Additional observations from a re-analysis of the deposited data

How the results depend on the processing

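The 3 comparisons gave the same member counts under most settings. A 1.3-fold limit raised the ZebDKO count of members to 4, the direct count to 5, the other family genes to 8, 2 and 5 and the partner genes to 7, 10 and 11 in Runx1KO, ZebDKO and direct comparisons, where 37.2%, 52.0% and 51.9% of all genes were called at that limit. A pseudocount of 0.1 gave 2 members in ZebDKO cells, with S100a1 added. With no filter 1 other family gene was called in ZebDKO cells, S100a5, which was at 1.83 TPM in control and 0 in ZebDKO libraries, and which was also called lower in Runx1KO cells (-1.12). Within 2 kb 3 members had a Runx1-dependent peak (17.5% of genes with a position) and within 50 kb 8 (44.0%), and within 50 kb 7 had a Runx1KO-induced one (58.4%). Leaving out 1 library gave 4, 1 and 3 called members in the 3 comparisons, as did the replicate block, under which all 9 counts and all 30 member values kept their call. Same-numbered libraries did not deviate together, so they were not taken as pairs.

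Signs turned for small values. S100a10 in Runx1KO cells was -0.037 after quantile normalization. S100a11 in ZebDKO cells was 0.088 and Anxa8 0.15 under median-ratio scaling, and Anxa8 was 0.18 after quantile normalization and between -0.087 and 0.066 with 1 library left out. Between the knockouts, S100a11 was -0.16 and Anxa1 -0.15 under median-ratio scaling, S100a11 was between -0.012 and 0.022 with 1 library left out, and Anxa2 was 0.0023 after quantile normalization. The cause of these turns was not tested. Median-ratio scaling moved all genes called in ZebDKO cells from 973 higher and 944 lower to 1184 and 661, and between the knockouts from 1203 and 861 to 909 and 1058. Depth is unknown from TPM.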
